A study of Mus musculus with 48 samples.

Results

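Acetylcholine acts on muscarinic receptors, which couple to G proteins, and on nicotinic receptors, which are ion channels built from several subunits. The 9 genes described here were the rows of the gene count table with the symbols Chrm1, Chrm2, Chrm3 and Chrm5, which encode muscarinic receptors, and Chrna3, Chrna4, Chrna5, Chrna7 and Chrnb2, which encode nicotinic subunits. They were 9 of 23420 genes in the table, all 9 were found, and all 9 passed the filter on low counts that the tests used. Their level was read as CPM (counts of a gene per M counts over all genes of that mouse, where M stands for mega), after the 3 sequencing lanes of a mouse had been summed.

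As background, the striatum receives dense acetylcholine release from a small population of cholinergic interneurons that fire tonically. The M1, M3 and M5 receptors couple mainly to Gq and phospholipase C, while M2 and M4 couple mainly to Gi/o and lower cyclic AMP. M1 is known from medium spiny neurons, the projection neurons that make up most of the striatum, M2 from cholinergic terminals, and M5 from midbrain dopamine neurons. The main heteromeric nicotinic receptor of the forebrain joins alpha4 and beta2 subunits, alpha5 is an accessory subunit of it, and alpha7 forms homomeric channels of high calcium permeability. Much nicotinic protein in the striatum lies on dopamine and cortical axons whose cell bodies are elsewhere, so RNA of a striatal punch need not follow receptor protein there.

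RNA was taken from striatal punches of 3 mm, pooled from both hemispheres of each of 16 mice of about 50 days. A group of 8 mice carried a congenic segment of 112 kb on the C57BL/6J background, and 8 wild-type C57BL/6J littermates were the controls, with 4 females and 4 males in each genotype. As background on the line, the segment comes from DBA/2J and lies on chromosome 11. None of the 9 genes lies on that chromosome: on NCBIM37 they map to chromosomes 2, 3, 6, 7, 9, 13 and 19, with Chrm5 and Chrna4 on chromosome 2 and Chrna3 and Chrna5 on chromosome 9. Splicing differences between the genotypes are what the deposited title is about.

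Totals ran from 73.1 M to 82.0 M gene counts per mouse. All 12 markers of medium spiny neurons were detected, with a summed level of 9220 to 11500 CPM, and the 9 markers of cholinergic interneurons summed to 139 to 185 CPM. The 12 markers of cortical excitatory neurons summed to 186 to 430 CPM, and this sum varied more between mice than those of the other 2 lists. Wild-type female Sample_4806 went against its label in part: Xist was at 2.73 CPM, where the other 7 females had 958 to 1540 CPM, and 4 Y-linked genes summed to 0.0917 CPM, where the males had 170 to 214 CPM. Scores for markers of medium spiny neurons were lowest in 3 females, wild-type Sample_4753 (-0.15) and Sample_4806 (-0.19) and congenic Sample_4804 (-0.20), which had cortical scores of 0.47, 0.63 and 0.80. A marker score is the mean over a list of log2 CPM, centred over the 16 mice.

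The promoters of 4 members are shown because Chrm3, Chrna4 and Chrna5 tended to be high in the same mice, while Chrna7 varied least. Pearson's r over 16 mice was 0.727 for Chrm3 and Chrna4, the only pair among Chrm3, Chrna4 and Chrna5 whose permutation p passed adjustment. It was 0.673 for Chrna4 and Chrna5 (0.0278 within wild-type mice) and 0.567 for Chrm3 and Chrna5 (0.29 within wild-type mice). Each line gives the 250 bases before the annotated start, 5′ to 3′ on the strand of the gene, from RefSeq on GRCm38.p6, with GC boxes (GGGCGG, either strand) in capitals.
Chrm3, chr13:10360804-10361053, minus strand: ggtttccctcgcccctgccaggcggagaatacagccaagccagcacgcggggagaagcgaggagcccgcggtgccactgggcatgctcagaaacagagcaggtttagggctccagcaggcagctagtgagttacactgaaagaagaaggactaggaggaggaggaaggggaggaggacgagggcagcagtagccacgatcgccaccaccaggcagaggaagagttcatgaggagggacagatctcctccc
Chrna4, chr2:181039178-181039427, minus strand: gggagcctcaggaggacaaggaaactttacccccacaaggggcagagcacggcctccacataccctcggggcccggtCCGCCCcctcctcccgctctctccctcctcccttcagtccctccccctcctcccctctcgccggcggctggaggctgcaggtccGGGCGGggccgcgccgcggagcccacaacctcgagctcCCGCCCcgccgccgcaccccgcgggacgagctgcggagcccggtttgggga
Chrna5, chr9:54981238-54981487, plus strand: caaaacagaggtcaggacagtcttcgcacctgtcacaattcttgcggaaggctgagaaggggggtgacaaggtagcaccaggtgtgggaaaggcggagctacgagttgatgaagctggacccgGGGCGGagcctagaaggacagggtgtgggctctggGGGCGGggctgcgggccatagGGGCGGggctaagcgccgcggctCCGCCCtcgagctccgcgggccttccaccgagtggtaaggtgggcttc
Chrna7, chr7:63212527-63212776, minus strand: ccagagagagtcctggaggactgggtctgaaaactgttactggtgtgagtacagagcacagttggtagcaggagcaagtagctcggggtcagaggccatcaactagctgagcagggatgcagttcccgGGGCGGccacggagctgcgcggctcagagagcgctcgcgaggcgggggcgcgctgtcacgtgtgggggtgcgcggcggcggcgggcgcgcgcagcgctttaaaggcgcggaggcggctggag
The Chrna5 window, 1 of 2 listed for that gene, held 4 GC boxes, the Chrna4 window 3, the Chrna7 window 1 and the Chrm3 window 0. The other Chrna5 window, which is not shown (chr9:54980630-54980879), held 0 and had a GC content below the median of all windows. A GC box was found in 32.7% of the 32851 promoter windows of the same length. GC content was 74.4% for Chrna4, 67.2% for Chrna7, 65.2% for Chrna5 and 61.2% for Chrm3, against a median of 52.4% over all windows. Of the members not shown, Chrna3 had 63.2% and Chrnb2 59.6%, while Chrm2 at 50.0% and Chrm5 at 37.6% were below that median. A match describes letters, not factor binding. Of the 9 members, 8 had a window in the table, all but Chrm1.

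Within each family the genes are taken by their level per kb of exon, which is given after the values in CPM. Chrm1 had the highest level of the 9. It encodes the Gq-coupled M1 receptor and lies on the plus strand of chromosome 19, from 8738495 to 8758077 (NCBIM37). Congenic mice had 125 to 172 CPM with a median of 137, and wild-type mice 115 to 156 CPM with a median of 147. The groups overlapped almost entirely, with the highest value in congenic male Sample_4671 and the lowest 2 in wild-type females Sample_4806 and Sample_4753. The log2 fold change, congenic minus wild-type, was -0.02 with a 95% interval of -0.17 to 0.13.

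Chrm3, the gene of the M3 receptor, was second among the muscarinic members. It is annotated as 1 exon of 1949 bp on chromosome 13, from 9876381 to 9878329, of which 1767 bp are coding. The promoter window shown above lies at 10360804 to 10361053 on another build, so this annotation may lack exons. A length that is too short would raise the level of Chrm3 per kb. Its level was 12.4 to 20.5 CPM in congenic mice (median 15.4) and 14.2 to 20.4 CPM in wild-type mice (median 16.6). In 3 congenic mice it lay below the lowest wild-type mouse and in 1 above the highest, and the log2 fold change was -0.11 (95% interval -0.32 to 0.09). With the score of cortical neuron markers in the model it was -0.000758 (p = 0.993), and leaving out 1 mouse gave -0.182 (without Sample_4677) to -0.0674 (without Sample_4734).

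Chrm2 and Chrm5 were low. Chrm2, the gene of the Gi/o-coupled M2 receptor (chromosome 6, 36338084 to 36478414), had 3.36 to 4.73 CPM in congenic mice (median 4.11) and 3.45 to 4.83 CPM in wild-type mice (median 4.03). With counts of 246 to 394 per mouse, its log2 fold change was -0.01 with an interval of -0.18 to 0.17. Chrm5, the gene of the M5 receptor (chromosome 2, 112319229 to 112320974), rested on 29 to 93 counts per mouse. It had 0.373 to 0.871 CPM in congenic mice (median 0.567) and 0.478 to 1.19 CPM in wild-type mice (median 0.693). The 2 highest mice, Sample_4732 and Sample_4738, were wild-type, but the interval of the log2 fold change of -0.31 ran from -0.78 to 0.16. Without Sample_4738 the value was -0.172 and without Sample_4732 it was -0.188.

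Chrnb2 led the nicotinic members. It encodes the beta2 subunit that pairs with alpha4 and lies on chromosome 3, from 89557370 to 89568554. Congenic mice had 50.4 to 61.8 CPM (median 60.4) and wild-type mice 54.0 to 66.2 CPM (median 60.8). Congenic male Sample_4673 was the lowest and 3 wild-type mice lay above all congenic mice, but the groups overlapped and the log2 fold change was -0.05 (95% interval -0.15 to 0.06). Without Sample_4673 it was -0.0124, and without the 3 females of low medium spiny neuron score -0.0938.

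Chrna7, the gene of the alpha7 subunit, was the steadiest member. It lies on chromosome 7, from 70243578 to 70357455, and had 15.6 to 18.6 CPM in congenic mice (median 17.1) and 16.0 to 19.4 CPM in wild-type mice (median 17.2). The log2 fold change was -0.003 and its 95% interval of -0.10 to 0.10 was the narrowest of the 9.

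Chrna4, the gene of the alpha4 subunit, showed a split among the congenic mice. It lies on chromosome 2, from 180753085 to 180778251. The 8 wild-type mice were close together, at 15.6 to 18.2 CPM with a median of 16.2 and an SD of 0.975. Of the congenic mice, 5 were below every wild-type mouse: Sample_4733 at 11.6, Sample_4731 at 12.5, Sample_4739 at 12.7, Sample_4673 at 13.0 and Sample_4737 at 13.5 CPM. The other 3 congenic mice, Sample_4804 at 17.3, Sample_4677 at 17.7 and Sample_4671 at 18.2 CPM, lay inside the wild-type range. The congenic median was 13.2 CPM and the SD 2.68. The log2 fold change was -0.18 (SE 0.09, 95% interval -0.36 to -0.002), with p = 0.0478 before adjustment and 0.999 after it in edgeR's quasi-likelihood test over 16716 genes.

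Cortical marker levels moved with that split. The 5 lower congenic mice had cortical scores of -1.02 to -0.21 and the other 3 had 0.23 to 0.80. Wild-type males Sample_4732 and Sample_4672, with cortical scores of -0.47 and -0.39, had 15.6 and 17.3 CPM. Over the whole list, 2 of 12 cortical markers had a positive log2 fold change, against 51.1% of all genes. The median log2 fold change of the list was -0.35, with none called, and no marker was at 0 in all mice. Its summed level was 186 to 430 CPM in congenic against 219 to 403 CPM in wild-type mice. Without the 3 females of low medium spiny neuron score the log2 fold change of Chrna4 was -0.23 (p = 0.0337 before adjustment), and without Sample_4671 it was -0.25. With the cortical score as a covariate the log2 fold change of Chrna4 was -0.10 (p = 0.191). The part of cortical RNA in the Chrna4 values beyond this was not tested. In bulk tissue, fewer cells of a type and less RNA per cell cannot be told apart.

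Chrna5 and Chrna3 were the members of lowest level. Chrna5, the gene of the accessory alpha5 subunit (chromosome 9, 54828687 to 54855586), rested on 23 to 90 counts per mouse, with 0.315 to 0.856 CPM in congenic mice (median 0.443) and 0.371 to 1.15 CPM in wild-type mice (median 0.716). The 2 highest mice, Sample_4738 and Sample_4753, were wild-type females, the groups overlapped, and the log2 fold change was -0.41 (95% interval -0.89 to 0.07, p = 0.0928 before adjustment). With the cortical score in the model it was -0.17, without the 3 females -0.44 and without Sample_4671 -0.60. Chrna3, the gene of the alpha3 subunit (chromosome 9, 54859150 to 54874366), had 0.623 to 1.06 CPM in congenic mice (median 0.875) and 0.576 to 1.07 CPM in wild-type mice (median 0.8288). Its log2 fold change of 0.05 (95% interval -0.25 to 0.36) was the only positive value among the 9.

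The ranking of the receptors was read per length of exon, since longer transcripts give more counts. Lengths were those of merged exons in the GENCODE annotation of NCBIM37, and values are means ± SD over 16 mice. The annotation behind the gene counts is not named, so these lengths need not be the ones that were counted. For Chrm2 and Chrm3 the gene counts differed from those of their annotated exons, as given below. Their values and ratios per kb are uncertain for that reason. Chrm1 was at 22.4 ± 2.38 CPM per kb. Chrnb2 followed at 11.1 ± 0.700 and Chrm3 at 8.43 ± 1.27 CPM per kb. A middle tier held Chrna7 at 3.81 ± 0.223 and Chrna4 at 3.15 ± 0.445 CPM per kb. The other 4 were below 1: Chrm2 at 0.672 ± 0.0703, Chrm5 at 0.385 ± 0.135, Chrna3 at 0.275 ± 0.0473 and Chrna5 at 0.216 ± 0.0871 CPM per kb. Chrm1 was above Chrnb2 in 16 of 16 mice with ranges that did not overlap, by a ratio of means of 2.01. Chrm3 was clear of Chrna7 (ratio 2.22), and Chrna4 of Chrm2 (ratio 4.69), in the same way. The other neighbours overlapped in range: Chrnb2 was above Chrm3 in 16 mice, Chrna7 above Chrna4 in 15, Chrm2 above Chrm5 in 15, Chrm5 above Chrna3 in 14 and Chrna3 above Chrna5 in 12.

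How clearly neighbours were parted depended on which counts were used. The gene table held a median of 1195 counts per mouse for Chrm3 where its annotated exon held 819.5 in the table of exon bins, and the median for Chrm2 was 318 in the gene table where bin 6 alone held 544.5. Bin counts summed to 118.5 M to 133.2 M per mouse, but were divided by the gene totals of 73.1 M to 82.0 M. The 6 bp of Chrna4 bin 8 held a median of 30 counts, so a read may count in more than 1 bin. Chrna7 has 15 bins and Chrm3 has 1, so values per kb of bins need not compare between genes. Per kb of the exon bins, Chrm3 was at 5.67 and Chrna7 at 5.28 CPM per kb, and Chrm3 was above Chrna7 in 10 of 16 mice. Chrnb2 was then clear of Chrm3, Chrna7 of Chrna4, and Chrm2, at 1.86 CPM per kb, of Chrm5, with ranges that did not overlap. Chrna4 stayed clear of Chrm2, at a ratio of means of 2.06. The order of the means did not change for the 8 members whose bins could be placed. For Chrm1 the 6 deposited bins did not match the 3 rebuilt from the annotation, and no value per kb of bins was computed.

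**Figure D1:**
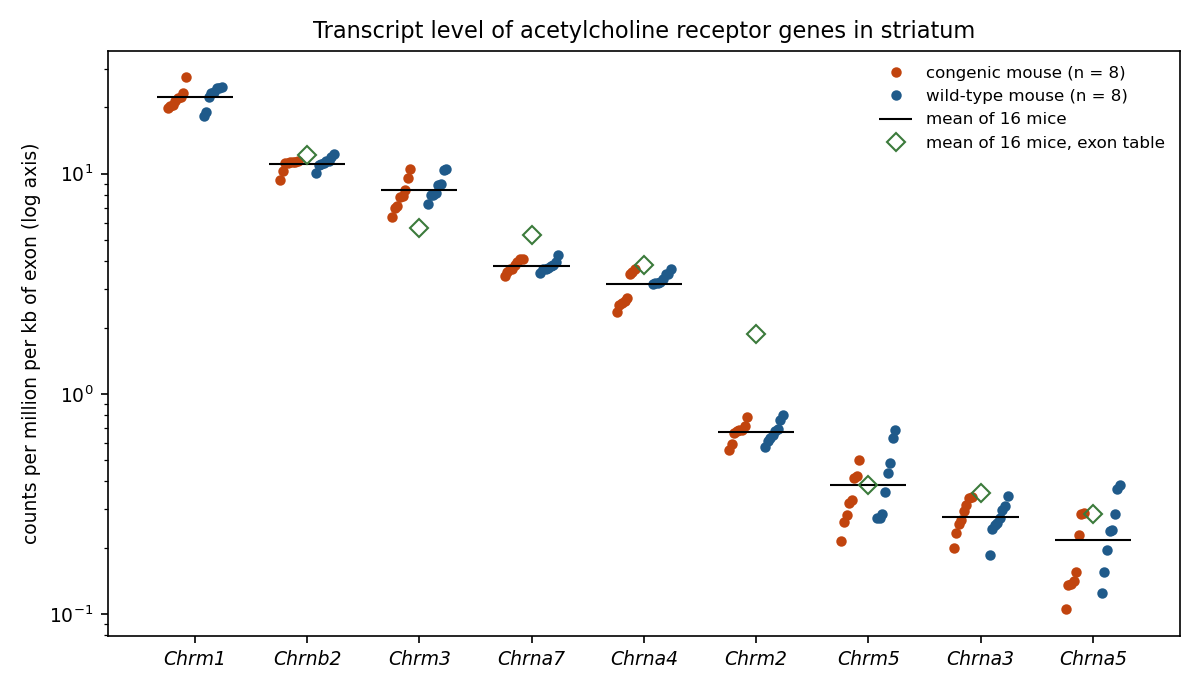
Level of the 9 receptor genes in CPM per kb of merged exon (log axis), 1 point per mouse, congenic mice to the left and wild-type mice to the right of each gene. Black lines are means of 16 mice and open diamonds the means from the exon table. The diamonds lie farthest from the lines for Chrm2, Chrm3 and Chrna7. They also lie above the lines, by less, for Chrna5 (0.283 against 0.216), Chrna3 (0.353 against 0.275), Chrna4 (3.84 against 3.15) and Chrnb2 (12.2 against 11.1).

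Among the receptor genes outside the 9, Chrm4 had a higher level per kb than any of the 9. Chrm4 encodes the Gi/o-coupled M4 receptor, known from medium spiny neurons of the direct pathway, and had 40.6 ± 3.76 CPM per kb (SD, n = 16). It was 1.61 to 2.09 times the Chrm1 level per kb in each mouse. Chrnb1, the beta subunit of muscle receptors, was at 0.921 ± 0.145 CPM per kb. Chrna6 and Chrnb3, whose subunits are known from midbrain dopamine neurons, had 27 and 172 counts over all 16 mice. Chrnb4, Chrna1, Chrna2, Chrna10 and Chrne had 229 to 813 counts over all mice, and Chrna9 had 72. Of these 12 genes, 8 were tested and 0 called for genotype, sex or interaction in edgeR. At an unadjusted p under 0.05 there were 0 of 8 for genotype (1.53% of all genes), 2 of 8 for sex, Chrm4 and Chrnb3 (14.7%), and 1 of 8 for the interaction (4.18%), Chrne, the epsilon subunit of muscle receptors, at 1.76 (SE 0.54, p = 0.00399, adjusted p = 0.967). Chrna10 had a genotype log2 fold change of 0.89 (SE 0.43, p = 0.0505 before adjustment), and Chrnb3 a difference between males and females of -1.54 (SE 0.55, adjusted p = 0.224 in edgeR). Chrng had 1 count and Chrnd 0. For Chrnd, a limit of 3 counts over all mice allows up to 0.00242 CPM (counting error only).

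Within the alpha4 and beta2 pair, the Chrnb2 level per kb exceeded that of Chrna4 3.11 to 4.79 times, with a median of 3.48. Chrna4 exceeded Chrna5 8.41 to 25.5 times. Among muscarinic genes Chrm1 exceeded Chrm3 2.11 to 3.66 times and Chrm5 32.8 to 109 times. These ratios describe RNA per length and not the makeup of receptors, and the ratio with Chrm3 carries the limit of length given above.

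The spread between mice differed by member. The SD of log2 CPM over 16 mice was 0.0876 for Chrna7 and 0.103 for Chrnb2, below the median of 0.13 over all genes tested. It was 0.151 for Chrm2, 0.171 for Chrm1, 0.211 for Chrna4 and 0.215 for Chrm3. Chrna3 had 0.257, Chrm5 0.467 and Chrna5 0.55, which places Chrm5 above 91.3% and Chrna5 above 94.1% of genes of all levels. The biological coefficient of variation from edgeR can be set beside its trend at the level of the gene. It was 0.2869 against 0.2331 for Chrm5, 0.2925 against 0.2341 for Chrna5 and 0.1739 against 0.2219 for Chrna3. The differences between the 3 lanes of a mouse were turned into an SD of log2 CPM. For Chrna3 the lanes alone would give an SD of 0.309, against 0.257 observed, so its spread between mice was not above that between lanes. For Chrna5 the lanes would give an SD of 0.287 and for Chrm5 0.284, less than the observed SDs of 0.55 and 0.467. Without the 2 mice farthest from its median, Chrnb2 had an SD of 0.0595.

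None of the 9 genes passed an adjusted p of 0.05 between the genotypes in edgeR's quasi-likelihood test. Of all 16716 genes tested, 0% were called. At an unadjusted p under 0.05 there was 1 member of 9, Chrna4, where 1.53% of all genes passed (256 genes). The median log2 fold change of the 9 was -0.05, against 0.0015 over all genes. Of the 9 values 1 was positive, against 51.1% of all genes. The 9 values come from the same mice and some members varied together, so they are not 9 separate results. DESeq2 and limma-voom also called 0 of the 9, with Chrna4 at p = 0.0411 and 0.0312 before adjustment. The 95% intervals of Chrm1, Chrm2, Chrna7 and Chrnb2 lay between -0.18 and 0.17 on the log2 scale, while those of Chrm5 and Chrna5 reached -0.78 and -0.89. Within females Chrna4 had -0.12 and Chrna5 -0.61, and within males Chrna4 had -0.25 and Chrna5 -0.19, none of them called.

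**Figure D2:**
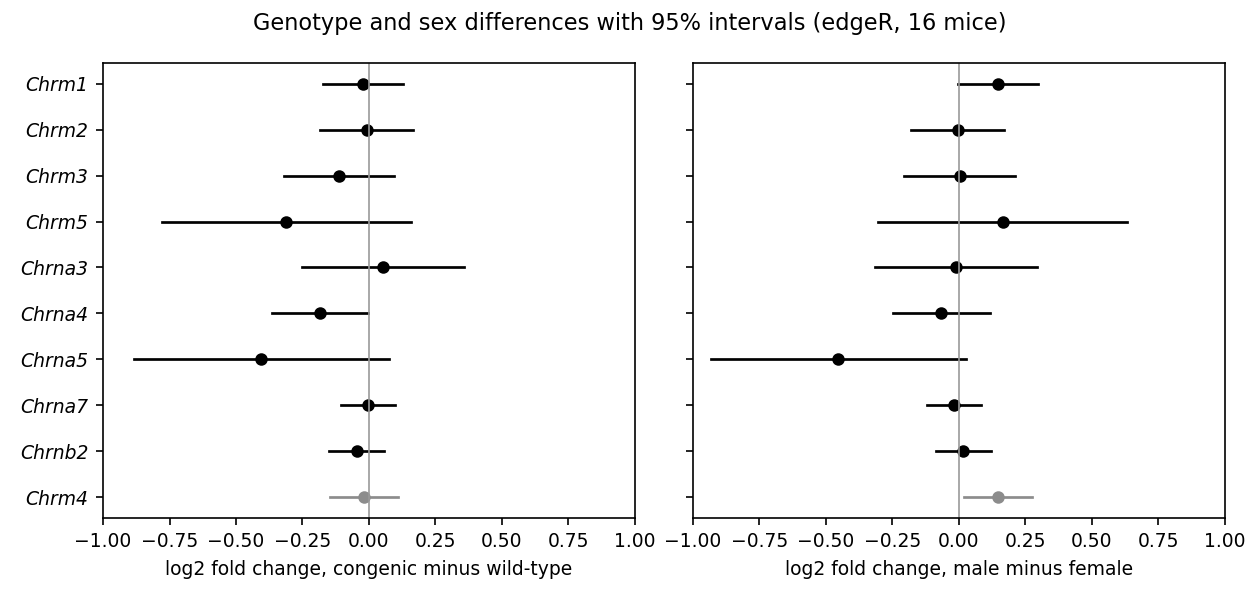
Log2 fold change (point) and 95% interval (line) of each receptor gene between genotypes (left, congenic minus wild-type) and between sexes (right, male minus female), from edgeR over 16 mice; Chrm4, outside the 9, is in grey. On the left only the interval of Chrna4 leaves out 0 (-0.36 to -0.002), and on the right only that of Chrm4 does (0.02 to 0.27).

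Between the sexes 0 of the 9 genes were called, where 0.138% of all genes were (23 of 16716). The count over all genes was 259 with DESeq2 and 12 (without Sample_4672 or Sample_4731) to 76 (without Sample_4712) on leaving out 1 mouse. At an unadjusted p under 0.05 there were 0 of 9, against 14.7% of all genes. Chrm1 was at 127 to 172 CPM in males (median 144) and 115 to 154 CPM in females (median 134). Its log2 fold change, male minus female, was 0.15 (95% interval -0.004 to 0.30, adjusted p = 0.346 in edgeR, unadjusted p = 0.0437 in DESeq2), and Chrm4 had 0.15 (adjusted p = 0.288). Of the markers of medium spiny neurons 12 of 12 had a positive log2 fold change, against 48% of all genes, and none was called. Their median was 0.09, with a summed level of 9880 to 11500 CPM in males against 9220 to 11000 CPM in females. With the score of these markers in the model the Chrm1 value was -0.02. Without the 3 females of low score it was 0.04, and without female Sample_4806 alone it was 0.11. The part of medium spiny neurons in the Chrm1 difference was not tested, and cell number and RNA per cell cannot be told apart here.

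Chrna5 was at 0.315 to 0.856 CPM in males (median 0.443) and 0.406 to 1.15 CPM in females (median 0.716). The groups overlapped and the log2 fold change was -0.45 (95% interval -0.93 to 0.03, adjusted p = 0.36 in edgeR, unadjusted p = 0.0368 in limma-voom). DESeq2 and limma-voom called 0 of the 9 between the sexes. Of the cortical markers 1 of 12 had a positive log2 fold change, against 48% of all genes, and none was called. Their median was -0.62, with a summed level of 186 to 403 CPM in males and 199 to 430 CPM in females. With the cortical score in the model the Chrna5 value was -0.135, and without the 3 females -0.34. The part of cortical RNA in the Chrna5 difference was not tested. The other 7 members had sex differences of -0.07 for Chrna4 to 0.16 for Chrm5. The genotype effect was not found to differ between the sexes: 0 of 9 members and 0% of all genes were called for the interaction, with 0 of 9 and 4.18% at an unadjusted p under 0.05. With 4 mice of each genotype and sex the interval of the interaction ran from -0.55 to 1.38 for Chrna5 and from -0.49 to 0.24 for Chrna4.

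Across the 16 mice, 9 relations between members and marker scores passed adjustment by the p of Pearson's r, 3 of them with Chrm1, 2 each with Chrnb2 and Chrna5, and 1 each with Chrna4 and Chrm3. An r of at least the same size was also found among all genes tested. For Chrm1 the share was 0.5% (medium spiny neuron), 5.4% (endothelial and mural) and 8.8% (oligodendrocyte precursor). For Chrnb2 it was 2.1% and 3.3% with the latter 2 scores. It was 0.7% (cortical) and 2.8% (microglia) for Chrna5, 2.9% (cortical) for Chrna4 and 2.8% (other interneuron) for Chrm3. These relations were computed after the values had been seen, for 9 members and 14 marker lists (126 relations), on punches that share dissection and library preparation. Chrm1 followed the medium spiny neuron score, with Pearson's r = 0.887 (permutation p = 2e-05, adjusted p = 0.00252 over the 126) and Spearman's rho = 0.871 (permutation p = 3e-05, adjusted p = 0.00189). Without the 2 mice of most extreme score r was 0.865, and it was 0.878 within congenic and 0.898 within wild-type mice, 0.885 within males and 0.843 within females. An r as high was found for 0.5% of all genes tested. Chrm1 also followed the endothelial and mural score, with r = 0.792 (permutation p = 0.00017, adjusted p = 0.00428), rho = 0.882 (permutation p = 1e-05, the smallest these permutations can give) and r = 0.806 without the 2 most extreme mice. Chrnb2 followed that score too, with r = 0.848 (permutation p = 0.00012, adjusted p = 0.00428), rho = 0.794 (permutation p = 0.00041) and r = 0.637 without the 2 most extreme mice. Both genes also followed the score of OPC (oligodendrocyte precursor cells), Chrm1 with r = 0.745 and rho = 0.762 (permutation p = 0.00086 and 0.00101, adjusted 0.0171 and 0.0212) and Chrnb2 with r = 0.825 and rho = 0.803 (permutation p = 0.00014 and 0.00044, adjusted 0.00428 and 0.0111). Without the 2 most extreme mice r was 0.747 for Chrm1 and 0.707 for Chrnb2. What these scores contribute to the values of Chrm1 and Chrnb2 was not tested.

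Chrna5 followed the cortical score, with r = 0.845 (permutation p = 0.00012, adjusted p = 0.00428) and rho = 0.809 (permutation p = 0.00022, adjusted p = 0.00924). Without the 2 most extreme mice r was 0.784, and it was 0.937 within congenic and 0.703 within wild-type mice, 0.957 within males and 0.649 within females. It ran against the microglia score, with r = -0.742 (permutation p = 0.00095, adjusted p = 0.0171) and rho = -0.75 (permutation p = 0.00128), and r = -0.693 without the 2 most extreme mice. Chrna4 had r = 0.697 with the cortical score (permutation p = 0.00347, adjusted p = 0.0486) and rho = 0.632 (permutation p = 0.00989, adjusted p = 0.113). Without the 2 most extreme mice its r was 0.581. It was 0.831 within the 8 congenic and 0.0444 within the 8 wild-type mice, 0.628 within males and 0.828 within females, and the difference between these values was not tested. Chrm3 had r = 0.683 with the score of other interneurons (permutation p = 0.00305, adjusted p = 0.048), rho = 0.697 (permutation p = 0.00353, adjusted p = 0.0556) and r = 0.584 without the 2 most extreme mice. With the cortical score Chrm3 had r = 0.635 and Chrm2 r = 0.464, neither of which passed adjustment. Chrna7 had r = 0.0648 with the cortical and 0.28 with the medium spiny neuron score.

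**Figure D3:**
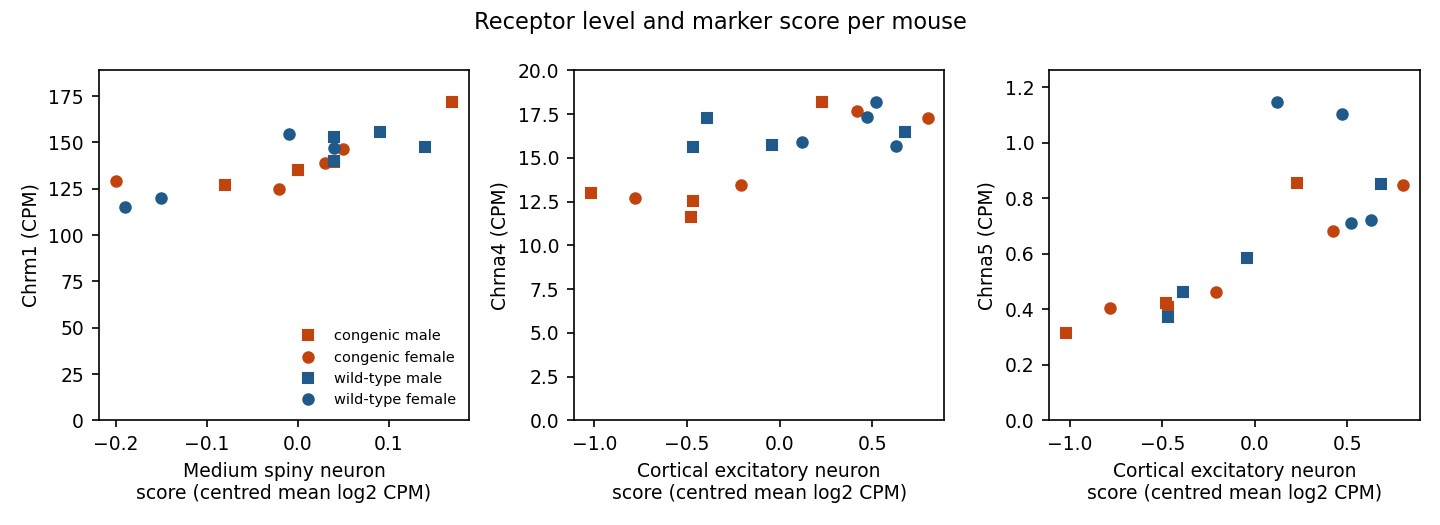
CPM per mouse of Chrm1 against the score of medium spiny neuron markers, and of Chrna4 and Chrna5 against the score of cortical excitatory neuron markers (centred mean log2 CPM); colours give genotype, squares males and circles females. Chrm1 and Chrna5 climb with their scores in both genotypes, while the 5 Chrna4 values under the wild-type range are from congenic mice with cortical scores of -1.02 to -0.21.

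**Figure D4:**
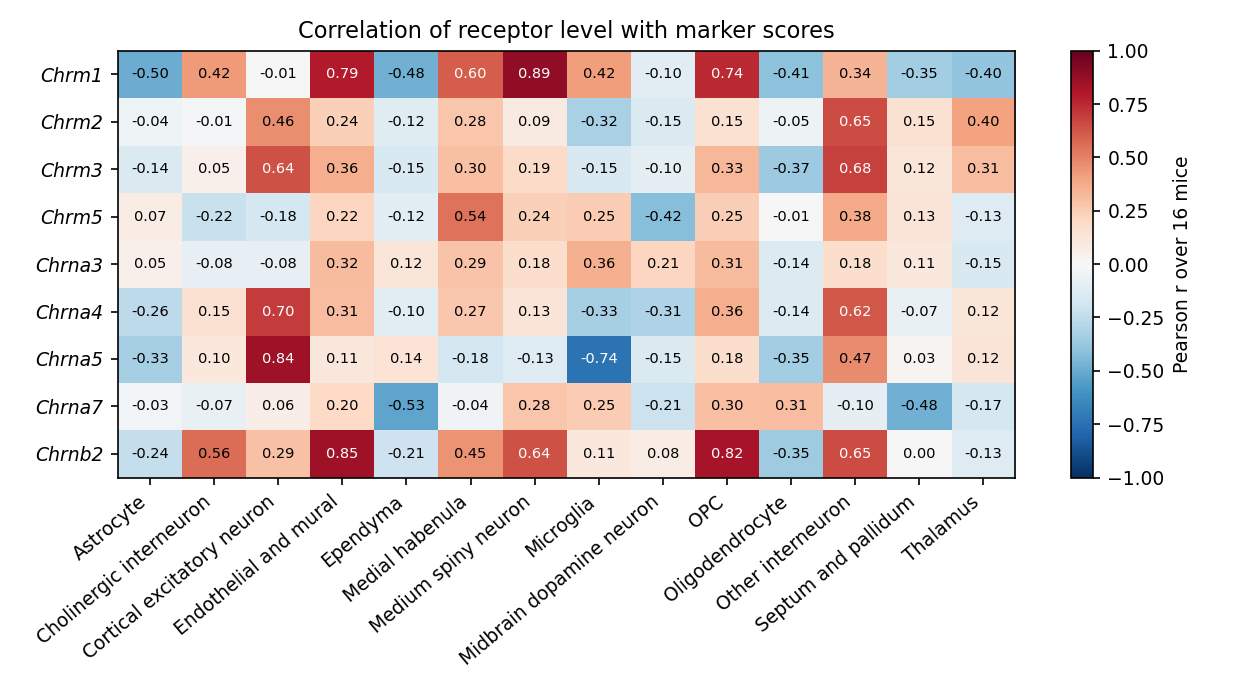
Pearson's r over 16 mice between log2 CPM of each receptor gene (rows) and the score of each marker list (columns), from -1 (blue) to 1 (red). The highest values are Chrm1 with medium spiny neurons, Chrnb2 with endothelial and mural cells and Chrna5 with cortical excitatory neurons.

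Some pairs of members also varied together. Of 36 pairs of members 28 had a positive r, with a median of 0.233. The same values were not computed over pairs of all genes, which share punches and libraries. The count is therefore not a result about the members. Chrm1 and Chrnb2 had r = 0.761 and rho = 0.776 (permutation p = 0.00028 and 0.00068, adjusted over the 36 pairs 0.0101 and 0.0122). Without the 2 mice farthest from the Chrm1 median, Sample_4671 and Sample_4806, r was 0.709. Sample_4673, the lowest mouse for Chrnb2, was kept in that value. Chrm3 and Chrna4 had r = 0.727 and rho = 0.818 (permutation p = 0.00166 and 0.00024, adjusted 0.0299 and 0.00864), and r = 0.725 without the 2 mice farthest from the Chrm3 median. Chrna4 and Chrna5, the subunits that can share a channel, had r = 0.673 and rho = 0.653 (permutation p = 0.00487 and 0.00736, adjusted 0.0584 and 0.0699), with r = 0.909 within congenic and 0.0278 within wild-type mice. Chrna4 and Chrnb2, the main partners, had r = 0.396 and rho = 0.315 (permutation p = 0.127 and 0.235).

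The 3 genes most like each member, by Pearson's r of log2 CPM over 16 mice among genes of at least 1 CPM, were as follows, as a description with no test. They were Mfn2 (r = 0.956), Rnf44 and Zfp503 for Chrm1, Appbp2 (r = 0.835), Prepl and Nup155 for Chrm2, Mical2 (r = 0.845), Lrrc32 and Sept9 for Chrm3, and Acan (r = 0.796), Tbck and AF529169 for Chrm5. For nicotinic genes they were Rrp9 (r = 0.826), Sox18 and Cpsf3l for Chrna3, Tmppe (r = 0.866), Gpd2 and Pdlim1 for Chrna4, and C1ql3 (r = 0.915), Prss23 and Sv2b for Chrna5. Plekho2 (r = 0.799), Eml1 and Rgs7bp were closest to Chrna7, and Pfkp (r = 0.954), Sptan1 and Aplp2 to Chrnb2.

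Exon bins, stretches of exon shared by the same transcripts, gave no call for the members. Of the 9 genes, 7 had more than 1 bin tested (45 bins), since Chrm3 and Chrm5 have 1 bin each. With edgeR's test of bin use 0 of 7 genes were called between genotypes, where 0.00672% of 14875 genes were (1 gene), and 0 of 7 between sexes, where 0.128% were (19 genes). At an unadjusted p under 0.05 there were 0 of 45 member bins for genotype, against 1.03% of all bins, and 0 of 45 for sex, against 3.25%. Bin changes against the rest of the gene ran from -0.20 to 0.30 on the log2 scale between genotypes, with a lowest p of 0.257.

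Several bins of single transcripts held few counts. In Chrna7, bin 7 is 2371 bp long, holds coding and untranslated sequence of 1 of 3 transcripts, and lies at 70284311 to 70286681 on chromosome 7. It held 14 to 36 counts per mouse, 1.16 ± 0.298% of the gene's counts (SD, n = 16), where the 1051 bp of bin 1, in the other transcripts, held 41.1 ± 1.87%. The share of bin 1 was 40.5 ± 1.84% in congenic and 41.7 ± 1.84% in wild-type mice (SD, n = 8). Bins 10, 11 and 12 of Chrna7, short stretches of a single transcript, held 0 to 3 counts per mouse. In Chrna4, bin 14 (160 bp of 1 transcript, at its 5′ end) held 0 to 1 count per mouse, and the longest, bin 2 (2454 bp), held 47.3 ± 2.80%. In Chrm2, bins 1 and 4, which are untranslated or noncoding stretches of single transcripts, held 0 and 0 to 2 counts per mouse, while 63.1 ± 2.83% fell into bin 6, an untranslated or noncoding stretch of 3640 bp, and 33.3 ± 2.65% into the bin with the coding sequence.

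**Figure D5:**
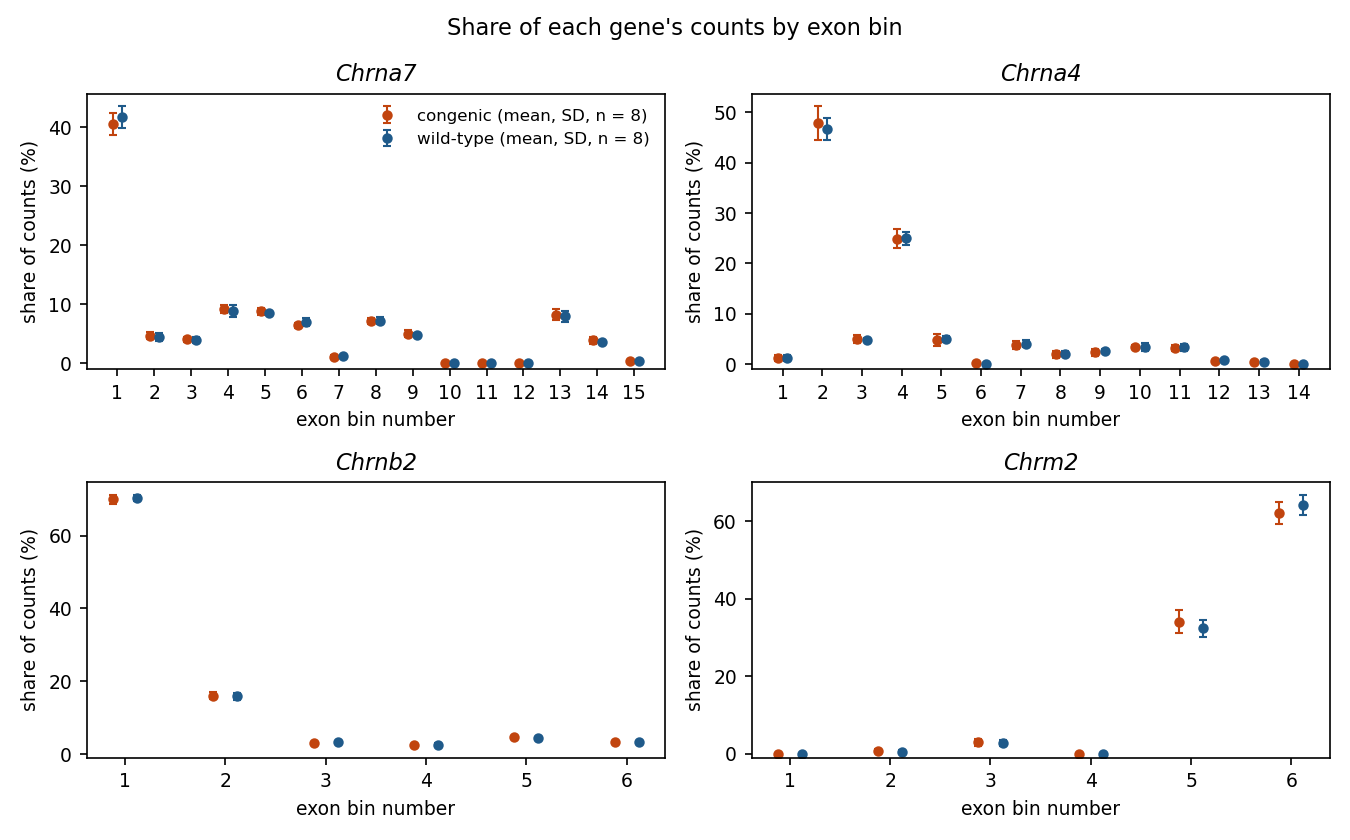
Percent of the exon counts of a gene that fell into each bin (mean and SD of 8 mice) for Chrna7, Chrna4, Chrnb2 and Chrm2, numbered along the plus strand of the chromosome, congenic in orange and wild-type in blue. For Chrna7 bin 1 the means are 40.5% and 41.7%, and bins 7 and 10 to 12 of Chrna7 and bin 14 of Chrna4 lie near 0.

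Genes that make, store and break down acetylcholine were not called for genotype or sex (0 of 8 tested in edgeR), with 1 of 8 at an unadjusted p under 0.05 for genotype (1.53% of all genes) and 0 of 8 for sex (14.7%). Chat, the synthesising enzyme, had 18.2 to 29.5 CPM in congenic mice (median 25.9) and 21.9 to 32.7 CPM in wild-type mice (median 26.9), a log2 fold change of -0.11 (SE 0.10). Slc5a7, the choline transporter, had -0.04 (SE 0.06), Slc18a3, the vesicular transporter, -0.04 (SE 0.10), and Ache, the degrading enzyme, -0.03 (SE 0.06). Colq, which anchors the enzyme at the muscle endplate, had the lowest p of the list for genotype, at 0.27 (SE 0.11, p = 0.0222 before adjustment), with a level of 1.31 to 1.99 CPM in congenic and 1.11 to 1.66 CPM in wild-type mice.

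Of 10 genes for nicotinic chaperones and Ly6 proteins, which assist or restrain nicotinic receptors, 8 were tested and 0 called in either contrast in edgeR, with 1 of 8 at an unadjusted p under 0.05 for genotype (1.53% of all genes) and 5 of 8 for sex (14.7%). Male minus female, those 5 were Lypd1 at -0.24 (adjusted p = 0.206), Ly6e at -0.15 (0.276), Lynx1 at -0.10 (0.279), Ric3 at -0.09 (0.245) and Tmem35 at 0.09 (0.24). Lynx1, a Ly6 protein that binds alpha4 and alpha7 receptors, was abundant at 374 to 479 CPM, with a genotype log2 fold change of 0.04 (SE 0.04). The alpha7 chaperones Ric3 and Tmem35 had -0.01 (SE 0.03) and -0.04 (SE 0.03). Lypd6b had -0.35 (SE 0.16, p = 0.0431 before adjustment). Of 30 genes of muscarinic transduction 30 were tested and 0 called for genotype, with 0 at an unadjusted p under 0.05 (1.53% of all genes), a median of -0.02 and values of -0.29 for Kcnj6 to 0.23 for Rgs2. Gnaq, the G protein subunit of M1 and M3, had -0.02 (SE 0.04) and Plcb1, its phospholipase, -0.02 (SE 0.05). Between the sexes 0 of 30 were called, with 10 of 30 at an unadjusted p under 0.05 where 14.7% of all genes were, among them Rgs2 at 0.47 (SE 0.16) and Rgs4 at -0.15 (SE 0.05).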

How the data were processed

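Polyadenylated RNA of striatal punches of 16 mice was sequenced on 3 lanes per mouse (48 runs). The authors deposited counts per gene (23420 symbols) and counts per exon bin (368092 bins) as whole numbers that were not normalised. The submitters' processing notes name HTSeq 0.6.1p1, FastQC 0.10.1, edgeR 3.8.6, limma 3.22.7 and the builds mm9 and mm10, with no role for each. The aligner and the strand setting are not given in the sources used here. Per the labels' protocols reads were 50 bp single-end in one place and 100 bp paired-end in another. Of gene-table cells of 1 to 10 counts 62.0% were even, and the reason was not tested. Counting that ignored strand would let Chrm1 share 329 bp of exon with 7SK and Chrm2 142 bp with 9330158H04Rik, both on the opposite strand. No stretch of 50 bases in the members' transcripts was found in the coding transcripts of another gene, the only ones searched.

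Lanes were summed per mouse. The members, the gene lists and the marker lists were chosen with earlier results of these data known. Counts were tested with edgeR 4.0.16 (quasi-likelihood, TMM, filterByExpr at min.count 10 and min.total.count 15, R 4.3.3), with genotype and sex in the model, and p values were adjusted by Benjamini and Hochberg over all 16716 genes tested, with a threshold of 0.05. Log2 CPM used a prior count of 2. Bin use was tested with diffSpliceDGE over 235478 bins, and its coefficients were converted to log2. Exon bins rebuilt from GENCODE on NCBIM37 had the deposited number for 97.6% of 16655 genes, so positions are given on that build. DESeq2 1.42.0, limma 3.58.1, other scalings, filters, covariates, single lanes and leaving out each mouse were the alternatives. Correlations used 100000 permutations, two-sided. The code was tested on simulated data. Named genes are the 9 members, the other receptor genes, the listed pathway genes, and the 3 genes of highest r to each member. Mice are separate animals and the replicate numbers in the labels are mouse numbers, and litters were not analysed here, so no pairing was fitted. Counting intervals cover counting error only.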

Additional observations from a re-analysis of the deposited data

Results flagged for a closer look

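For each member, the highest and lowest mouse were compared with the rest of their group. Groups were those of genotype, those of sex and the 4 of genotype and sex (72 groups over the members, of which chance flags about 1 in 20). There were 4 flags, near that rate, so they are not a result about the members. The groups overlap, and Chrnb2 in Sample_4673 was flagged both among males and among congenic males. Chrnb2 in congenic male Sample_4673, at 50.4 CPM, stood apart from the other congenic males, whose lowest had 60.7 CPM, and from the other males, whose lowest had 59.5 CPM. That mouse also had the lowest scores for endothelial and mural (-0.37), OPC (-0.34), other interneuron (-0.35) and cortical (-1.02) markers, and their part in the value was not tested. Chrnb2 in congenic female Sample_4739, at 55.5 CPM, stood below the other congenic females, whose lowest had 60.1 CPM. Chrm1 in congenic male Sample_4671, at 172 CPM, stood above the other congenic mice, whose highest had 146 CPM, and that mouse had the highest medium spiny neuron score (0.17).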

How the results depend on the processing

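No alternative brought a member past the threshold. The lowest adjusted p of a member was 0.78 for genotype and 0.285 for sex, and 0.977 and 0.156 with single mice left out. The direction was kept in 105 of 114 values for genotype and 95 of 114 for sex, and in 130 of 144 and 124 of 144 with single mice left out. The genotype values that turned were Chrm1 (0.00515) and Chrm2 (0.0552) with the cortical score, Chrm2 (0.00155) and Chrna3 (-0.132) in lane 3, Chrm2 (0.0328) in lane 4, Chrna7 (0.026) in lane 5, and Chrm2 (0.00988), Chrna3 (-0.0216) and Chrna7 (0.0345) without the 3 females of low medium spiny neuron score (Sample_4753, Sample_4804 and Sample_4806), a setting chosen after seeing the data. The sex values that turned were Chrm1 (-0.0168), Chrm3 (-0.0659) and Chrnb2 (-0.0738) with the medium spiny neuron score, and Chrm2 (0.0752) and Chrna4 (0.0594) with the cortical score. In lane 3 Chrm3 (-0.0706) and Chrna3 (0.491) turned, in lane 4 Chrm2 (0.0759), Chrm5 (-0.286), Chrna7 (0.0218) and Chrnb2 (-0.0308), and in lane 5 Chrna7 (0.0254). Without the 3 females Chrm2 (0.0121), Chrm3 (-0.0278), Chrm5 (-0.0417) and Chrnb2 (-0.0409) turned, without TMM Chrm3 (-0.0246) and Chrnb2 (-0.00981), and with at least 1 CPM in all mice Chrm3 (-0.00413). At that filter Chrm5, Chrna3 and Chrna5 were not tested. Leaving out 1 mouse gave -0.0685 to 0.00947 for Chrm1, -0.0511 to 0.031 for Chrm2, -0.0178 to 0.11 for Chrna3, -0.0248 to 0.0291 for Chrna7 and -0.254 to -0.143 for Chrna4, -0.182 to -0.0674 for Chrm3, -0.402 to -0.172 for Chrm5, -0.598 to -0.312 for Chrna5 and -0.0728 to -0.0124 for Chrnb2 between genotypes. Between sexes it gave -0.0468 to 0.0324 for Chrm2, -0.0423 to 0.0715 for Chrm3, -0.0855 to 0.0479 for Chrna3 and -0.0159 to 0.0494 for Chrnb2. Over all genes the sex effect had 23 calls, and 259 with DESeq2, 15 with at least 1 CPM in all mice, 13 with the cortical and 12 with the medium spiny neuron score, 13 in lane 4, 11 without the 3 females and 12 to 76 without 1 mouse (12 without Sample_4672 or Sample_4731, 76 without Sample_4712). Exon bin use had 1 gene called for genotype, 0 with limma and 0 with bins of at least 10 counts in every mouse, and 19 for sex, 47 with limma. Levels per kb moved to 1.86 (2.33 over coding bins) for Chrm2, 5.67 for Chrm3, 0.353 for Chrna3, 3.84 (3.88) for Chrna4, 5.28 (5.31) for Chrna7 and 12.2 for Chrnb2 in the exon table, and to 6.15 for Chrna7 over its longest transcript. The SD of Chrnb2 was 0.0595 without the 2 farthest mice. The cause of these shifts was not tested. At 23 to 93 counts per mouse, depth limits Chrm5, Chrna3 and Chrna5. No paired analysis was possible because the replicate numbers are mouse numbers that no groups share, and litters were not analysed here.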
